A study of Homo sapiens with 9 samples.

Results

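The 10 genes described here encode enzymes and a carrier of serine synthesis and folate one-carbon metabolism: PHGDH, PSAT1, PSPH, SHMT1, SHMT2, MTHFD1, MTHFD2, MTHFD1L, ALDH1L2 and SLC19A1. They were taken by gene symbol from a table of 25084 genes, which held all 10, and all 10 were among the 14495 genes with enough reads to be tested. The 9 RNA-seq libraries came from LAN5, a human neuroblastoma cell line known for its extra copies of MYCN. Cells were electroporated with the control siRNA siCTR, with siMYCN_2 against MYCN (siMYCN here) or with siHAND2_3 against HAND2 (siHAND2 here), and each siRNA has 3 libraries. All cells grew in RPMI-1640 with fetal calf serum, antibiotics and L-glutamine and were collected 72 h after transfection. The study's stated aim was to find genes under the control of HAND2 and MYCN. Each target was lowered with 1 labelled siRNA in 1 cell line. The labels do not say whether the 3 libraries of a group came from separate cultures, so p-values measure the spread between these libraries, which may be technical.

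Cells make serine from the glycolytic intermediate 3-phosphoglycerate, and serine hydroxymethyltransferases then move a carbon from serine onto tetrahydrofolate, which leaves glycine. In mitochondria that carbon is oxidised and released as formate, which the cytosolic enzyme MTHFD1 puts back onto folate for the synthesis of purines, thymidylate and methionine. MYC family transcription factors, to which MYCN belongs, and the stress-response factor ATF4 are known to act on several of these genes, and proliferating tumour cells are known for high levels of the mitochondrial branch. HAND2 is a helix-loop-helix factor of the sympathetic lineage from which neuroblastoma arises.

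Values are CPM, the reads of a gene scaled to a common total per library. The smallest steps between low values put the depth at about 21100000 to 32700000 reads per library. Fold changes are log2 differences of log2(CPM + 1) from 1 limma model over all 9 libraries, with Benjamini-Hochberg adjustment across the 14495 genes and a threshold of 0.05. RNA came from whole cultures, so fewer cells of a kind and less RNA per cell cannot be told apart. The library siHAND2 replicate 3 stood apart from the other siHAND2 libraries (chi-square of the reads per degree of freedom 8.92 and 8.17, against 2.91 to 5.78 in all other pairs of replicates). Without it 6 of the 10 genes were still called against siCTR, and 5 in place of 6 between the knockdowns. MYCN transcript was at 1842 ± 54.2 CPM under siCTR, 1289 ± 47.0 CPM under siMYCN and 914 ± 48.4 CPM under siHAND2. HAND2 transcript was at 501 ± 13.7, 571 ± 15.9 and 272 ± 7.65 CPM (SD, n = 3 libraries each). MYCN transcript was thus lower after the siRNA against HAND2 than after the siRNA against MYCN, with no overlap between the libraries. Of the markers of the labelled cell type, DBH stood at 263 ± 18.2 CPM and CHGA at 373 ± 16.1 CPM in siCTR, while PECAM1, CDH5, KDR and PTPRC were at or below 0.24 CPM in every library. TH, which makes the catecholamine precursor, was low, at 2.95 ± 0.363 CPM. Of 6 such noradrenergic markers 5 rose in siMYCN, and in siHAND2 2 rose and 2 fell, DBH to 130 ± 5.65 CPM. Their sum was 1008 to 1122 CPM in siCTR, 1420 to 1492 CPM in siMYCN and 1057 to 1191 CPM in siHAND2. Of 6 tested mesenchymal markers 5 rose in siMYCN, and 5 rose and 1 fell in siHAND2, THY1 from 65.4 ± 5.91 CPM in siCTR to 56.8 ± 3.66 CPM. The sum of all 7 was 167 to 173 CPM with siCTR, 199 to 207 CPM with siMYCN and 304 to 348 CPM with siHAND2. Beside both marker lists, the shares called over all genes tested were 24.5% higher and 11.4% lower in siMYCN. In siHAND2 these shares were 18.1% higher and 11.8% lower. The part of either marker list in the results below was not tested. From siCTR to siHAND2, LUM went from 9.15 ± 0.142 to 54.7 ± 4.40 CPM, COL1A2 from 1.66 ± 0.138 to 15.9 ± 2.10 CPM, DCN from 0.431 ± 0.0794 to 11.02 ± 0.781 CPM and PDGFRB from 89.8 ± 3.07 to 179 ± 17.3 CPM, while COL1A1 stayed below 1 CPM in every library.

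The level of the genes differed widely when set per kilobase of the canonical transcript. In siCTR, PHGDH, the enzyme that commits 3-phosphoglycerate to serine, stood at 102 ± 0.844 CPM per kb, and SHMT2, the mitochondrial hydroxymethyltransferase, at 99.8 ± 1.23 CPM per kb. The folate enzymes MTHFD2 (70.7 ± 2.07 CPM per kb, mitochondrial) and MTHFD1 (69.5 ± 1.30 CPM per kb, cytosolic) followed, and their libraries overlapped. PSAT1, the aminotransferase of serine synthesis, stood at 43.0 ± 0.593 CPM per kb. PSPH, the phosphatase that releases serine, had 15.2 ± 0.576 CPM per kb and MTHFD1L, which yields formate in mitochondria, 14.6 ± 0.203, with the lowest library of PSPH just above the highest of MTHFD1L. SLC19A1, the reduced folate carrier of the plasma membrane, had 7.08 ± 0.244 CPM per kb and SHMT1, the cytosolic hydroxymethyltransferase, 6.03 ± 0.0885. ALDH1L2, which oxidises formyl-folate in mitochondria, was lowest at 0.333 ± 0.0505 CPM per kb (SD, n = 3 libraries throughout). The order of the group means was the same in siHAND2, and in siMYCN only MTHFD1 and MTHFD2 changed places, with overlapping libraries. In siHAND2 the libraries of MTHFD1 and MTHFD2 overlapped too. So did those of SLC19A1 (5.80 ± 0.662 CPM per kb) and SHMT1 (5.66 ± 0.635 CPM per kb), so their order there is not settled.

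**Figure D1:**
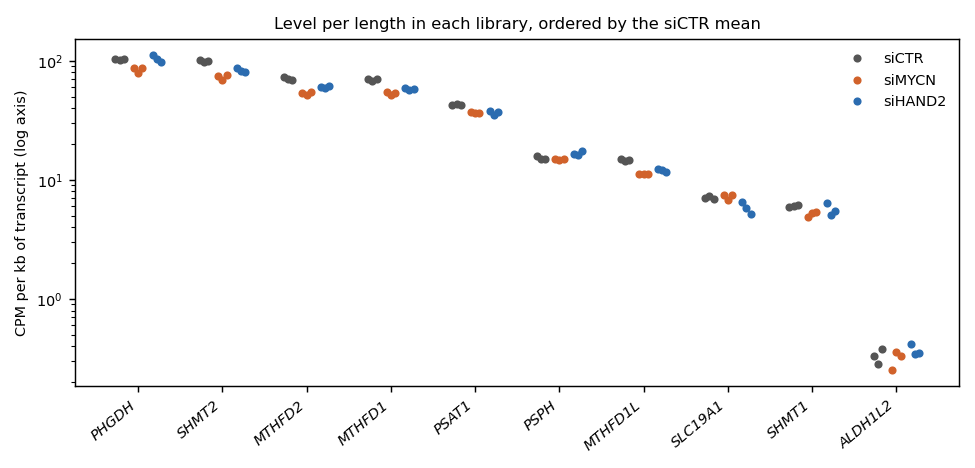
CPM per kilobase of transcript (log axis) of the 10 genes in the 9 libraries, ordered by the siCTR mean, with 1 point per library and 1 colour per siRNA. PHGDH and SHMT2 lead near 100 CPM per kb, and ALDH1L2 lies below 1 CPM per kb in all 9 libraries.

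Reads were assigned to genes by a rule that is not given in the sources used here, and whether strand was used is not given either. PHGDH (chromosome 1, 119648411 to 119744226, GRCh38 positions of the table), PSAT1 (chromosome 9, 78297125 to 78330093) and PSPH (chromosome 7, 56011051 to 56051604) overlapped no other gene of the table. ALDH1L2 (chromosome 12, 105019784 to 105107643) overlapped WASHC4 (68.5 CPM in siCTR) and C12orf45 (44.3 CPM) on the other strand, each far above its own 2.47 ± 0.375 CPM, so its level is uncertain. SHMT1 (chromosome 17, 18327860 to 18363563) overlapped SMCR8 on the other strand. SMCR8 stood at 45.6 CPM in siCTR, above the 15.2 ± 0.224 CPM of SHMT1, so the level of SHMT1 and its changes are also uncertain. SLC19A1 (chromosome 21, 45493572 to 45573365) overlapped COL18A1 at 2.00 CPM. The genes overlapping SHMT2 (chromosome 12, 57229573 to 57234935) and MTHFD2 (chromosome 2, 74198610 to 74217565) had group means of at most 2.18 CPM. MTHFD1 (chromosome 14, 64388031 to 64463457) overlapped ZBTB25 at 36.99 CPM, and MTHFD1L (chromosome 6, 150865549 to 151101887) overlapped genes with group means of at most 0.108 CPM. PSPH has close copies in the genome, and how reads that fit several genes were counted is not given, so its value is uncertain too.

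Lowering MYCN went with a lower level of 7 of the 10 genes and a higher level of none. The 7 were PHGDH, PSAT1, SHMT1, SHMT2, MTHFD1, MTHFD2 and MTHFD1L, which fell to between 73.6% and 85.4% of their siCTR means, and in each of them all 3 siMYCN libraries lay below all 3 siCTR libraries. Over all 14495 genes tested, 35.9% were called in siMYCN, 11.4% lower and 24.5% higher. All 3 siMYCN libraries lay below all 3 siCTR libraries in 16.1% of genes and above them in 33.4%. The split moved with the scaling: 16.1% of genes were called lower with median-ratio rescaling and 16.5% with quantile normalization. The same 7 of the 10 genes were called under each. PHGDH, SHMT2, MTHFD1 and MTHFD2 each had a higher mean CPM than at least 93.5% of tested genes. The shares over all genes, here and below, are not matched for level. The 10 genes were also chosen with earlier results of these data known. The median log2 change of the 10 genes was -0.25, against 0.06 over all genes tested. PSPH, ALDH1L2 and SLC19A1 did not pass the threshold.

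The largest falls were in the mitochondrial folate branch and in MTHFD1. SHMT2 measured 218, 212 and 216 CPM in siCTR replicates 1 to 3 and 161, 150 and 165 CPM in siMYCN. All siMYCN libraries were thus low, and the lowest siCTR library exceeded the highest siMYCN library by more than the spread in either group. The log2 change was -0.44 (standard error 0.04, limma, adjusted p = 1.87e-06), and 2.17% of the tested genes had a lower value. MTHFD2, the dehydrogenase and cyclohydrolase that oxidises the carbon from serine, went from 320, 312 and 302 CPM to 236, 226 and 239 CPM. All of its siMYCN libraries were low, with a log2 change of -0.41 (standard error 0.04, limma, adjusted p = 1.14e-06). MTHFD1L measured 51.2, 49.9 and 50.3 CPM in siCTR and 38.6, 38.3 and 39.0 CPM in siMYCN, a log2 change of -0.38 (standard error 0.05, limma, adjusted p = 1.26e-05). MTHFD1, the enzyme with 3 activities that runs the same steps in the cytosol, went from 221, 215 and 222 CPM to 172, 163 and 170 CPM. Its log2 change was -0.38 (standard error 0.04, limma, adjusted p = 2.43e-06). The ratio of MTHFD1L to MTHFD1 reads was 0.230 ± 0.00318 in siCTR and 0.229 ± 0.00537 in siMYCN (SD, n = 3 libraries), with overlapping libraries.

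Of the 3 enzymes of serine synthesis, 2 fell. PHGDH measured 192, 189 and 192 CPM in siCTR and 163, 147 and 161 CPM in siMYCN. Its siMYCN libraries were lower but further apart than the siCTR libraries, and the log2 change was -0.28 (standard error 0.05, limma, adjusted p = 0.000556). PSAT1 measured 94.4, 96.2 and 93.7 CPM in siCTR and 81.7, 80.3 and 80.1 CPM in siMYCN, a log2 change of -0.23 (standard error 0.04, limma, adjusted p = 0.000542). PSPH, the last step, measured 31.4, 29.3 and 29.6 CPM in siCTR and 29.6, 29.1 and 29.8 CPM in siMYCN. Its groups overlapped, and the change of -0.03 had a 95% interval of -0.14 to 0.09, so a fall of the size of that in SHMT2 lay outside the interval (limma, adjusted p = 0.735). The summed level of the 3 enzymes was 84.7% of that in siCTR, and that of the 4 mitochondrial folate enzymes 74.7%. The ratio of PHGDH to SHMT2 reads was higher in siMYCN, at 0.991 ± 0.0205 against 0.886 ± 0.00445 in siCTR (SD, n = 3 libraries), with no overlap. No test was made of these sums and ratios.

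The remaining genes had smaller or less certain changes. SHMT1 measured 15.0, 15.2 and 15.5 CPM in siCTR and 12.3, 13.2 and 13.5 CPM in siMYCN. The libraries did not overlap, with a log2 change of -0.21 (standard error 0.08, limma, adjusted p = 0.0392). That call was lost without any 1 of the 3 siCTR or 3 siMYCN libraries, where the change was between -0.24 and -0.18 and the adjusted p reached 0.131, and also with no filter on low values (-0.21). SLC19A1, which brings reduced folates into the cell, measured 35.2, 36.6 and 34.2 CPM in siCTR and 37.6, 33.8 and 37.4 CPM in siMYCN. Its change of 0.04 (95% interval -0.12 to 0.19, limma, adjusted p = 0.741) was within the spread, and its sign turned negative with both other scalings. ALDH1L2 measured 2.48, 2.10 and 2.85 CPM in siCTR and 1.89, 2.68 and 2.47 CPM in siMYCN, a change of -0.05 (95% interval -0.31 to 0.20, limma, adjusted p = 0.767). It rested on 47 to 94 reads per library, where the counting coefficient of variation reached 14.6%, so a change of the size of that in SHMT1 was not detectable at this depth.

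**Figure D2:**
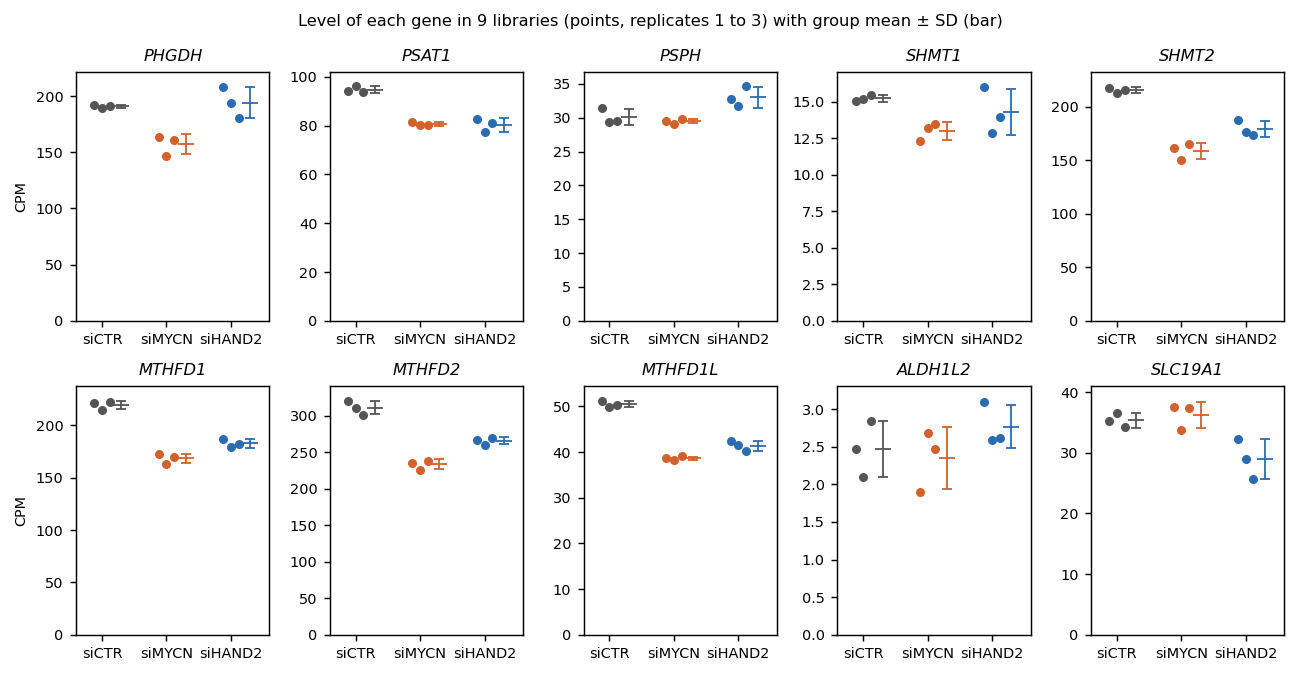
CPM of each of the 10 genes in each library (points, replicates 1 to 3 from left to right within a group), with the mean and SD of the 3 libraries beside them. In 7 genes the 3 siMYCN points lie below the 3 siCTR points, and SLC19A1 is low in siHAND2.

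The siRNA against HAND2 went with a lower level of 6 of the 10 genes and a higher level of none. PSAT1, SHMT2, MTHFD1, MTHFD2, MTHFD1L and SLC19A1 fell to between 81.9% and 85.5% of their siCTR means, a narrower range than in siMYCN, and their siHAND2 libraries all lay below the siCTR libraries. Over all genes tested, 29.9% were called in siHAND2, 11.8% lower and 18.1% higher. All 3 siHAND2 libraries lay below all 3 siCTR libraries in 16.6% of genes and above them in 25.8%. The share called lower was 15.5% with median-ratio rescaling and 14.9% with quantile normalization, and 6 of the 10 genes were called under each. The median log2 change of the 10 genes was -0.23, against 0.04 over all genes tested. The control libraries are the same as in the comparison of siMYCN with siCTR, so the pair of comparisons is not independent.

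SLC19A1 fell in siHAND2, where its libraries measured 32.3, 28.9 and 25.7 CPM against 34.2 to 36.6 CPM in siCTR. Its siHAND2 libraries were well apart from each other, and the log2 change was -0.28 (standard error 0.07, limma, adjusted p = 0.00674). Reads of COL18A1, which overlaps it on the other strand, went the other way, from a mean of 2.00 to 3.49 CPM. Whether reads of the overlap were shared between SLC19A1 and COL18A1 was not tested. Within the mitochondrial branch, MTHFD1L measured 42.5, 41.5 and 40.2 CPM, a change of -0.28 (standard error 0.05, limma, adjusted p = 0.00024). SHMT2 measured 187, 176 and 174 CPM, a change of -0.27 (standard error 0.04, limma, adjusted p = 0.00028). MTHFD2 measured 267, 261 and 270.4 CPM, a change of -0.22 (standard error 0.04, limma, adjusted p = 0.000472). All siHAND2 libraries of these 3 genes were below their siCTR libraries and above their siMYCN libraries. MTHFD1 in the cytosol measured 187, 179 and 182 CPM, a change of -0.26 (standard error 0.04, limma, adjusted p = 0.000102).

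Serine synthesis was divided in siHAND2. PSAT1 measured 82.9, 77.3 and 81.2 CPM, a change of -0.23 (standard error 0.04, limma, adjusted p = 0.000547), and its libraries overlapped those of siMYCN. PHGDH measured 208, 194 and 181 CPM, on both sides of the siCTR libraries. Its change was 0.02 (95% interval -0.09 to 0.13, limma, adjusted p = 0.773), with a sign that turned negative after median-ratio rescaling. The fall of PHGDH seen in siMYCN thus lay outside the interval in siHAND2. The ratio of PHGDH to PSAT1 reads was 2.41 ± 0.163 in siHAND2 against 2.01 ± 0.0433 in siCTR (SD, n = 3 libraries), with no overlap. PSPH measured 32.7, 31.7 and 34.7 CPM, all above siCTR, but the change of 0.13 did not pass the threshold (limma, adjusted p = 0.082). SHMT1 measured 16.06, 12.91 and 13.98 CPM and overlapped siCTR (-0.09, 95% interval -0.25 to 0.07, limma, adjusted p = 0.407), as did ALDH1L2 at 3.09, 2.59 and 2.62 CPM (0.12, 95% interval -0.14 to 0.38, limma, adjusted p = 0.494).

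**Figure D3:**
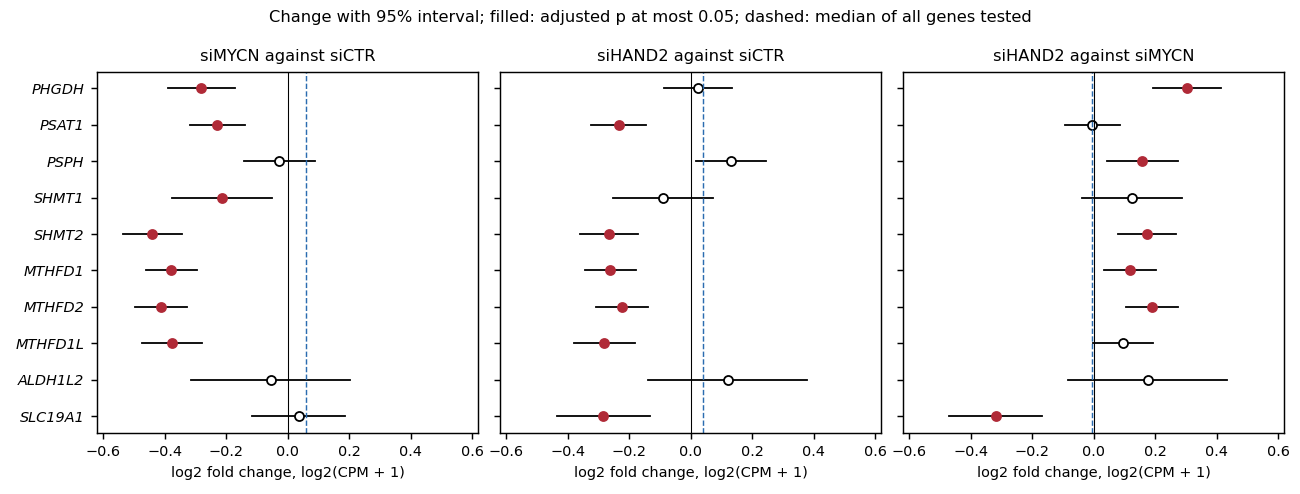
Log2 fold change on the log2(CPM + 1) scale (x axis) of the 10 genes in 3 comparisons, with 95% intervals from limma; filled points passed an adjusted p of 0.05, and the dashed line is the median of all genes tested. The 7 filled points in siMYCN lie between -0.44 and -0.21, and the 6 in siHAND2 between -0.28 and -0.22.

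The knockdowns were then compared with each other, a difference of group means in which siCTR enters only through the shared estimate of the spread. PHGDH, PSPH, SHMT2, MTHFD1 and MTHFD2 were higher in siHAND2 than in siMYCN, and SLC19A1 was lower. Over all genes tested, 26.9% were called, 1650 genes higher in siHAND2 (11.4%) and 2242 lower (15.5%). The direction of the majority depended on the scaling, with 1974 higher and 2003 lower after median-ratio rescaling and 2076 higher and 1924 lower after quantile normalization. All 3 siHAND2 libraries lay above all 3 siMYCN libraries in 17.1% of genes and below them in 21.6%. PHGDH had the largest positive difference of the 10, 0.30 (standard error 0.05, limma, adjusted p = 0.000322), and 93.5% of tested genes had a lower value. MTHFD2 differed by 0.19 (limma, adjusted p = 0.00208) and SHMT2 by 0.17 (limma, adjusted p = 0.00848), both with all siHAND2 libraries above all siMYCN libraries. SLC19A1 differed by -0.32 (standard error 0.07, limma, adjusted p = 0.00321). The 5 genes called higher stood above their siMYCN level in the group with the lower MYCN transcript. Whether the MYCN level had a part in these differences was not tested. The calls of PSPH (0.16, limma, adjusted p = 0.0411) and MTHFD1 (0.12, limma, adjusted p = 0.0381) were close to the threshold. PSPH lost its call without any 1 library other than siHAND2 replicate 2, with values of 0.12 to 0.16, and also with no low-value filter or with the 2 groups fitted alone (0.16 each). MTHFD1 lost its call without any 1 library other than siHAND2 replicates 2 and 3, with values of 0.10 to 0.13, and also with no low-value filter, the 2 groups alone or no trend term (0.12 each). PSAT1 was not called (-0.005, 95% interval -0.09 to 0.09), nor were MTHFD1L (0.10, 95% interval -0.003 to 0.19), SHMT1 (0.12, 95% interval -0.04 to 0.29) and ALDH1L2 (0.18, 95% interval -0.08 to 0.43).

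The promoters of the genes are shown because the targeted factors and ATF4 bind DNA motifs of known sequence. The RefSeq promoter table (GRCh38.p14) matched 7 of the 10 genes by symbol, and for each the 250 bases before the first listed start were searched on both strands for CACGTG (the E-box known for MYC family factors), CATCTG (an E-box known for HAND2 and its partners) and TGATGCA (the core of the element known for ATF4 with C/EBP factors). No match in the 7 windows overlapped another. The 4 matches are shown with up to 10 bases on either side, because they are the letters that the counts below rest on, and the whole window is shown for MTHFD2, a gene that fell in both knockdowns and holds no match. All are written 5′ to 3′ on the plus strand, which is the strand of these genes, in lower case with matches in capitals (a match on the other strand reads as its reverse complement).
PHGDH, chr1:119711684-119711707, plus strand: tcagataTGCATCAgctagtcagc
MTHFD1, chr14:64388328-64388352, plus strand: agtccctaagCACGTGggttgggtt
MTHFD1L, chr6:150866322-150866347, plus strand: cgcccggctcCACGTGcgcagccggc
MTHFD1L, chr6:150866347-150866373, plus strand: ccgccggctcTGATGCAatcgcgccgg
MTHFD2, chr2:74198365-74198614, plus strand: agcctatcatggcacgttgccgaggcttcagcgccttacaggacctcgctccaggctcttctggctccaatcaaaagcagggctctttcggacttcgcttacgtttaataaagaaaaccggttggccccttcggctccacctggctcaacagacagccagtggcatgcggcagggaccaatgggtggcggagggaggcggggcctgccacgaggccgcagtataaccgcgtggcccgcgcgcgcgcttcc

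In PHGDH the match to TGATGCA lay on the other strand, 243 to 237 bases before the start, and in MTHFD1 the match to CACGTG lay 15 to 10 bases before it. MTHFD1L held both, CACGTG 154 to 149 bases and TGATGCA 129 to 123 bases before its first listed start. PSAT1, SHMT1, MTHFD2 and SLC19A1 held none of the 3 motifs in this window. CACGTG was thus in 2 of 7 windows, against 9.02% of the windows of 10364 tested genes, TGATGCA in 2 of 7 against 1.07%, and CATCTG in 0 of 7 against 7.81%. A match is a description of these letters only, and no match says only that the letters are not in this window. The windows of PHGDH, MTHFD1, MTHFD1L and SLC19A1, 4 of the 7, lie wholly inside the span that the deposited table gives the gene, so the RefSeq start used is not the first start of the table's gene.

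The neighbouring pathway was described with 5 further lists, which held 48 genes, of which 45 were in the table and 39 passed the filter on low values. In siMYCN, 14 of the 39 fell and 6 rose, while 11.4% of all genes tested were called lower and 24.5% higher. The median log2 change of the 39 was -0.08 against 0.06 over all genes tested. In siHAND2, 13 fell and 3 rose, with a median of -0.08 against 0.04, while 11.8% of all genes tested were called lower and 18.1% higher.

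The folate cycle outside the 10 genes moved in both directions in siMYCN, with 3 of 14 tested genes lower and 3 higher and a median change of -0.06. Among all genes tested, 11.4% were called lower and 24.5% higher, so the rises were near that share. The glycine cleavage system, which breaks glycine down in mitochondria, was lower in 2 of its components. GLDC, its glycine decarboxylase, fell from 43.2 ± 1.95 to 31.8 ± 1.85 CPM (-0.43, limma, adjusted p = 0.000105), and GCSH, its carrier protein, from 48.7 ± 1.26 to 38.0 ± 0.746 CPM (-0.35, limma, adjusted p = 4.36e-05). SLC25A32, the mitochondrial folate carrier, fell from 38.5 ± 1.75 to 31.98 ± 0.605 CPM (-0.26, limma, adjusted p = 0.00126). SLC46A1, a proton-coupled folate carrier, rose by 0.23 (limma, adjusted p = 0.0252), but its call was lost with both other scalings. It was also lost without siCTR replicate 1 or 2 or siMYCN replicate 1 or 3 (0.18 to 0.23). AMT, the aminomethyltransferase of glycine cleavage, rose from 0.967 ± 0.105 to 1.65 ± 0.347 CPM (0.42, limma, adjusted p = 0.017), a call lost without siCTR replicate 2 or siMYCN replicate 1 or 2 (0.35 to 0.39).

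In siHAND2, 4 of the 14 tested genes of that list fell and 1 rose, with a median change of -0.09. Among all genes tested, 11.8% were called lower and 18.1% higher. Without siCTR replicate 2 or 3 the number called was 2 in place of 5, and without siHAND2 replicate 2 it was 3. GLDC measured 30.03 ± 2.72 CPM (-0.51, limma, adjusted p = 1.95e-05) and SLC25A32 31.8 ± 1.11 CPM (-0.27, limma, adjusted p = 0.00127). GCSH measured 43.5 ± 1.55 CPM (-0.16, limma, adjusted p = 0.0201), and its call was lost without siCTR replicate 2 or 3 or siHAND2 replicate 2 (-0.16 to -0.13). GGH, which trims the glutamate tail of folates, changed by -0.19 (limma, adjusted p = 0.0424), a call lost without siCTR replicate 2 or 3 or siHAND2 replicate 1 or 2 (-0.19 to -0.13), with no low-value filter and with no trend term (-0.19 each). AMT rose by 0.39 (limma, adjusted p = 0.0311), a call lost after quantile normalization and without siCTR replicate 2 or 3 or siHAND2 replicate 2 or 3 (0.33 to 0.39). GCSH was higher in siHAND2 than in siMYCN by 0.19 (limma, adjusted p = 0.00852), the direction seen for SHMT2 and MTHFD2. SLC46A1 was lower in siHAND2 than in siMYCN by -0.29 (limma, adjusted p = 0.00839), a call lost without siHAND2 replicate 2 (-0.21).

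The methionine cycle and transsulfuration list, which takes up folate-bound carbon and passes homocysteine on to cysteine, had 7 of 9 tested genes lower in siMYCN and none higher, with a median change of -0.22. Among all genes tested, 11.4% were called lower in siMYCN and 11.8% in siHAND2. AHCY, which hydrolyses S-adenosylhomocysteine, fell from 351 ± 8.40 to 269 ± 5.33 CPM (-0.38, limma, adjusted p = 2.94e-06). CTH, which makes cysteine, fell from 2.41 ± 0.278 to 1.18 ± 0.183 CPM, 48.7% of the siCTR mean (-0.65, limma, adjusted p = 0.000493). CBS, the step before it, fell from 60.2 ± 3.88 to 48.6 ± 1.74 CPM (-0.30, limma, adjusted p = 0.000503). The other four were MTR (-0.27), MAT2B (-0.22), MAT2A (-0.20) and MTRR (-0.22), and the call of MTRR was lost without siCTR replicate 2 or 3 or siMYCN replicate 1 or 3 (-0.22 to -0.18), with no low-value filter and with no trend term (-0.22 each). In siHAND2, 3 of the 9 fell, with a median over the list of -0.07: AHCY to 276 ± 10.9 CPM (-0.35, limma, adjusted p = 6.97e-06), CBS to 50.4 ± 2.24 CPM (-0.25, limma, adjusted p = 0.00269) and MTR to 140 ± 7.28 CPM (-0.23, limma, adjusted p = 0.00421). MAT2B was at 85.4 ± 3.31 CPM there, higher than in siMYCN by 0.20 (limma, adjusted p = 0.00407). MAT2A and CTH were also higher in siHAND2 than in siMYCN, by 0.15 and 0.38, but MAT2A lost its call without siCTR replicate 2, siMYCN replicate 1 or 3 or siHAND2 replicate 1 or 3 (0.10 to 0.15), with no low-value filter, the 2 groups alone or no trend term (0.15 each), and CTH without siMYCN replicate 1 or 2 or siHAND2 replicate 1 (0.32 to 0.37).

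Of the 3 enzymes that spend folate-bound carbon on nucleotides, 2 fell in siMYCN and 1 in siHAND2, where 2 were called after either rescaling and without siHAND2 replicate 3. Among all genes tested, 11.4% were called lower in siMYCN and 11.8% in siHAND2. GART and ATIC, of purine synthesis, were lower in siMYCN by -0.16 (limma, adjusted p = 0.00787) and -0.20 (limma, adjusted p = 0.0125), and the call of ATIC was lost without siCTR replicate 2 or siMYCN replicate 3 (-0.18 to -0.15). ATIC was also lower in siHAND2, by -0.27 (limma, adjusted p = 0.00202). TYMS, which makes thymidylate, stood at 80.9 ± 1.04, 83.8 ± 7.85 and 81.9 ± 2.45 CPM in the 3 groups and was not called in any comparison.

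Of 8 tested carriers of serine and related amino acids, 2 rose in siMYCN, near the 24.5% called higher over all genes, while 1 rose and 2 fell in siHAND2. Among all genes tested, 18.1% were called higher and 11.8% lower in siHAND2. With either rescaling 5 carriers were called in siMYCN, 2 higher and 3 lower. SLC1A5, a carrier of glutamine, serine and other neutral amino acids, measured 77.3, 72.9 and 69.7 CPM in siHAND2 against 121 ± 1.43 CPM in siCTR, a change of -0.72 (standard error 0.05, limma, adjusted p = 1.26e-08). In siMYCN it stood at 113 ± 5.58 CPM and was not called, and the direct difference between the knockdowns was -0.61 (limma, adjusted p = 5.88e-08). SFXN3, a mitochondrial serine carrier, fell from 39.6 ± 0.896 to 24.5 ± 0.478 CPM in siHAND2 (-0.67, limma, adjusted p = 4.16e-08) and stood at 39.1 ± 0.842 CPM in siMYCN, a direct difference of -0.65 (limma, adjusted p = 3.68e-08). SFXN1, the main carrier of the same family, was at 104 ± 1.46, 98.6 ± 3.604 and 101 ± 2.84 CPM and was not called. SLC38A2, an amino acid carrier that rises when amino acids are scarce, rose by 0.21 under siMYCN (limma, adjusted p = 0.000711) and by 0.34 under siHAND2 (limma, adjusted p = 1.05e-05). SLC1A4, a serine and alanine carrier, rose in siMYCN by 0.21 (limma, adjusted p = 0.00492), and was lower in siHAND2 than in siMYCN by -0.28 (limma, adjusted p = 0.000519).

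Of 5 tested enzymes that use serine, 2 fell and 1 rose in siMYCN, and 3 fell and 1 rose in siHAND2. Among all genes tested, 11.4% were called lower and 24.5% higher in siMYCN, and 11.8% lower and 18.1% higher in siHAND2. The single rise in each knockdown was thus near the share over all genes. PTDSS1 and PTDSS2, which make phosphatidylserine, fell in each knockdown. PTDSS1 went from 135 ± 2.43 CPM to 108 ± 3.03 CPM under siMYCN (-0.32, limma, adjusted p = 4.30e-05) and to 105 ± 4.97 CPM under siHAND2 (-0.37, limma, adjusted p = 9.82e-06). PTDSS2 changed by -0.37 under siMYCN (limma, adjusted p = 0.000678) and by -0.41 under siHAND2 (limma, adjusted p = 0.000292). SPTLC2, a subunit of the enzyme that starts sphingolipid synthesis, fell in siHAND2 from 145 ± 0.625 to 110 ± 7.20 CPM (-0.40, limma, adjusted p = 1.82e-05) and stood at 143 ± 7.81 CPM in siMYCN, a direct difference of -0.38 (limma, adjusted p = 2.59e-05). SRR, which makes D-serine, rose in each by 0.33 and 0.36 (limma, adjusted p = 0.0372 and 0.0303). Both calls were lost with both other scalings, without the trend term and when low genes were kept. The siMYCN call was also lost with precision weights (0.35), and without siCTR replicate 3 or siMYCN replicate 2 or 3 (0.21 to 0.33). The siHAND2 call was also lost without siCTR replicate 3 or siHAND2 replicate 1 (0.24 to 0.31).

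**Figure D4:**
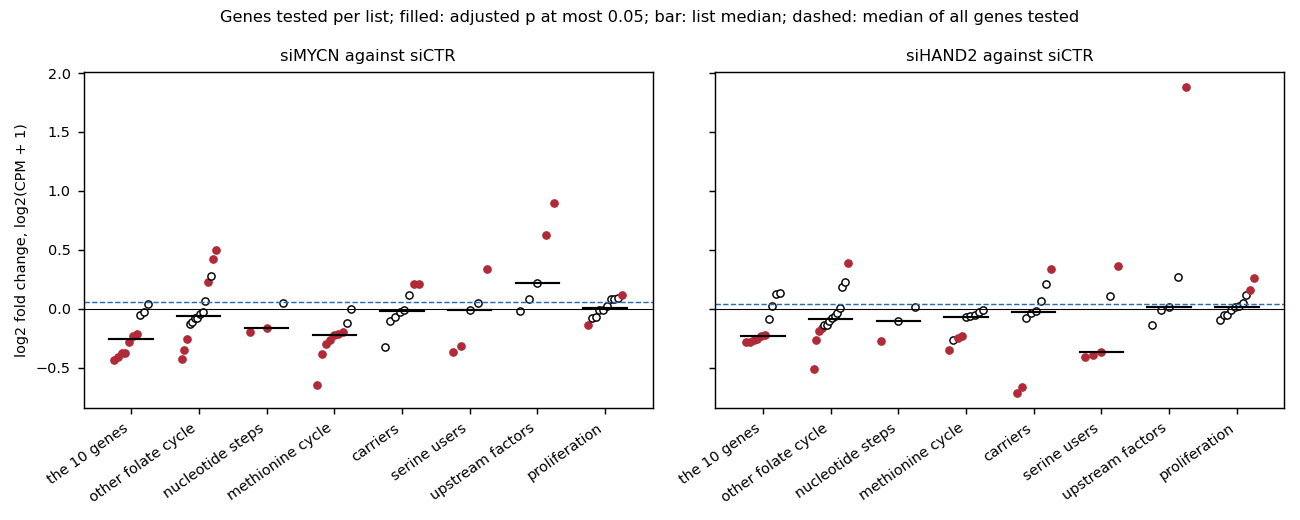
Log2 fold change on the log2(CPM + 1) scale (y axis) of the tested genes of 8 lists in siMYCN and siHAND2 against siCTR; filled points passed an adjusted p of 0.05, the bar is the median of the list and the dashed line the median of all genes tested. The median of the 10 genes is -0.25 in siMYCN and -0.23 in siHAND2, and that of the proliferation list is 0.01 and 0.02.

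Among factors known to act on these genes, ATF4 transcript stood at 323 ± 5.77 CPM under siCTR, 319 ± 4.72 CPM under siMYCN and 326 ± 13.1 CPM under siHAND2 and was not called in any comparison. ATF5, a related factor, rose in siMYCN from 5.32 ± 0.655 to 8.72 ± 0.408 CPM (0.63, limma, adjusted p = 0.000393) and was lower in siHAND2 than in siMYCN by -0.36 (limma, adjusted p = 0.0246). DDIT3, another stress factor, also was lower in siHAND2 than in siMYCN by -0.36 (limma, adjusted p = 0.0148). The difference was not called without siMYCN replicate 1 or 3 or siHAND2 replicate 3 for ATF5 (-0.37 to -0.24), or without siMYCN replicate 3 or siHAND2 replicate 1 for DDIT3 (-0.34 to -0.25), and neither was called with no low-value filter (-0.36 each). MYC, the relative of MYCN, was at 0.37 to 0.64 CPM in siCTR, 1.496 to 2.16 in siMYCN and 3.83 to 5.50 in siHAND2, with no overlap between the groups. Its log2 change was 0.90 under siMYCN (limma, adjusted p = 9.14e-05) and 1.88 under siHAND2 (limma, adjusted p = 3.11e-08), and it was higher in siHAND2 than in siMYCN by 0.98 (limma, adjusted p = 4.30e-05). At such levels the added 1 CPM understates the change: the means were 347% and 865% of siCTR, and with a pseudocount of 0.1 the log2 changes were 1.64 and 2.91. The same holds for AMT and CTH. Only transcripts of ATF4, ATF5, DDIT3 and MYC were measured, and the part of these factors in the levels of the 10 genes was not tested. The 10 genes of the proliferation list, such as MKI67 and TOP2A, summed to 3471 ± 48.9 CPM under siCTR, 3512 ± 7.84 CPM under siMYCN and 3523 ± 58.2 CPM under siHAND2 (SD, n = 3 libraries), with overlapping libraries. TOP2A alone gave 1284 CPM of the siCTR sum. In siMYCN 1 of the 10 was called higher (RRM2, 0.12) and 1 lower (CCNB1, -0.14), against 24.5% higher and 11.4% lower over all genes tested. Each of those calls was lost without siCTR replicate 2 or 3 or siMYCN replicate 1 or 3, and that of CCNB1 also without siCTR replicate 1 (0.10 to 0.12 for RRM2 and -0.15 to -0.11 for CCNB1). RRM2 was not called with either other scaling (0.06 in each), and neither gene was called with no trend term. In siHAND2 RRM2 (0.26, limma, adjusted p = 8.60e-05) and PCNA (0.16, limma, adjusted p = 0.0269) were called higher, against 18.1% of all genes tested. PCNA lost its call with both other scalings, with no low-value filter, with no trend term and without siCTR replicate 1 or 2 or siHAND2 replicate 3 (0.11 to 0.14).

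The genes most like PHGDH and SHMT2 over the 9 libraries were named by the Pearson correlation of log2(CPM + 1) among 11192 other genes whose mean CPM reached 5. For PHGDH these included GTF3C2 (0.970) and KNOP1 (0.962). For SHMT2 they were CCT7 (0.985), POLR1E (0.984) and GSR (0.982), and CCT7 measured 516 ± 3.46, 448 ± 2.77 and 474 ± 7.94 CPM under siCTR, siMYCN and siHAND2. These values describe likeness over libraries that share their groups and carry no test.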

How the data were processed

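RNA-seq of 9 LAN5 libraries was analysed from 1 table of the series, whose columns were matched to samples by name. The deposited values are CPM with a constant of 0.0001 in every value. The authors aligned with STAR 2.5.1 and used Partek, per the submitters' processing notes, which name the builds hg19 and GRCh37. Of 18215 symbols found in RefSeq GRCh38.p14, 91.4% started within 5000 bp of the position in the table, against 5.62% of 18635 in GENCODE GRCh37, so the table's positions are given as GRCh38. The counting rule is not given in the sources used here.

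Of the low values, 80.0% to 81.5% were whole multiples of a library's smallest step (within 0.02 of a step), so no count model was used. Genes reaching 1 CPM in 3 or more libraries were tested with limma 3.58.1 in R 4.3.3 (log2(CPM + 1), intensity trend, all 3 groups in 1 fit, two-sided), after a check on simulated data. Depth of about 21100000 to 32700000 reads per library limits precision at 1 CPM to a coefficient of variation of 17.5% to 21.8%, for counting error only. No 2 replicates agreed within counting noise (chi-square per degree of freedom 2.91 to 8.92). Transcript lengths came from the canonical transcripts of GENCODE v44 on GRCh37, and no coordinate was taken from it. All 10 genes and both targets are named. From the other lists, genes past the threshold are named, with at least the 3 smallest adjusted p-values per list and comparison, and for PHGDH and SHMT2 the 3 genes most alike. Some genes that this rule would name are not reported here. TYMS, SFXN1 and ATF4, which were not called, were named after their values were seen. The members and lists were chosen with earlier results of these data known. Alternatives were other pseudocounts, filters and scalings, 2 groups alone, no intensity trend, a replicate block, precision weights and each library left out.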

Additional observations from a re-analysis of the deposited data

How the results depend on the processing

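The number of the 10 genes past the threshold was 7 in siMYCN, 6 in siHAND2 and 6 between the knockdowns. Over 19 alternatives it stayed within 6 to 7, 6 and 4 to 6, and leaving out 1 library at a time gave the same ranges. The number of all genes past it, 5209, 4339 and 3892, was 4017 to 5845, 3079 to 4341 and 2923 to 3992 without 1 library. Of 567 values of the 10 genes under alternatives, 529 kept direction and call, 27 lost the call and 11 changed sign, all 11 in comparisons that were not called; the cause was not tested. With median-ratio rescaling these were SLC19A1 in siMYCN (-0.021), PHGDH in siHAND2 (-0.017) and PSAT1 between the knockdowns (0.012), and with quantile normalization SLC19A1 (-0.0078) and PSAT1 (0.025). Without 1 library the ranges were -0.045 to 0.0026 for PSPH in siMYCN (above 0 without siCTR replicate 1), -0.13 to 0.047 for ALDH1L2 in siMYCN (above 0 without siCTR replicate 3 or siMYCN replicate 1), -0.027 to 0.073 for PHGDH in siHAND2 (below 0 without siHAND2 replicate 1) and -0.026 to 0.024 for PSAT1 between the knockdowns (above 0 without siMYCN replicate 1 or siHAND2 replicate 2). No setting turned the direction of a called gene among the 10. With the replicate number as a block, 5895, 5089 and 4689 genes were called, and the number of the 10 genes called was 7, 6 and 6, as without it. The labels do not say that a number marks a shared batch, and the deviations from the group means did not meet the rule that every same-number correlation exceed 0.1: 6 of 9 did (-0.04 to 0.31), against -0.30 to 0.14 in the 18 pairs of different numbers. Of the 9 libraries, 7 correlated best with one of their own number, a hint from the data and not the design. Where a fit had 2 libraries of a group, the spread was pooled over all groups. ALDH1L2 failed the filter of 5 CPM and has no value there.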
